A study of Caenorhabditis elegans with 15 samples.

Results

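The genes described here are the 5 Wnt ligands of Caenorhabditis elegans (lin-44, egl-20, cwn-1, cwn-2 and mom-2), its 4 Frizzled receptors (mig-1, lin-17, mom-5 and cfz-2) and bar-1, the beta-catenin of the canonical pathway. They were chosen by gene name and family, with earlier results of these data known, and they are 10 of the 46778 genes in the table. RNA of whole worms of the wild-type strain N2 was sequenced in 3 groups of 5 samples: SiO2 nanoparticles at 10 µg/ml (replicates 11 to 15), Ag nanoparticles at 10 µg/ml (replicates 6 to 10), and Control, which had none (replicates 1 to 5). The bacterium E. coli OP50 was the food in every group. According to the methods, larvae of the first stage were exposed for 72 h until adult day 1, whereas the sample labels place the exposure at adult day 1, and the descriptions were not reconciled here. The methods describe worms raised in individual wells and each condition as repeated 6 times, whereas each group here has 5 samples. They do not say which wells or days make up a sample, and p-values measure the spread between these samples. The RNA came from whole worms, and fewer cells of a type cannot be told apart from less RNA per cell.

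Wnt proteins are secreted signals that carry a lipid and bind Frizzled receptors on the surface of the receiving cell. In the canonical branch, a bound Frizzled acts through Dishevelled to keep a complex of Axin, APC and the kinase GSK3 from destroying beta-catenin, which then works with the TCF factor POP-1 to switch on target genes. In C. elegans, Wnt signals orient asymmetric cell divisions, guide neurons and their migrating precursors along the body, pattern the vulva and, in the early embryo, specify the endoderm.

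The 5 SiO2, 5 Ag and 5 Control libraries held between 16560734 and 24296570 reads assigned to genes. The 10 genes drew 126 to 4011 reads each per sample, and all 10 passed the filter on low values (a total of at least 3 reads over the samples of a comparison). Gene symbols were taken from Ensembl release 115 on the WBcel235 assembly. Markers of neurons, muscle, hypodermis, intestine, germline and sperm were all detected, and none of them was at 0 in all 15 samples.

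Transcript levels can be compared between genes only per length, and for this they were expressed as RPKM, reads per kilobase of annotated exon, per 1000000 assigned reads. In Control worms the highest level was that of mom-5, a Frizzled known from the early embryo, with 67.2 ± 6.64 RPKM, followed by the Wnt mom-2, which the embryo uses together with it, with 56.1 ± 7.22 RPKM (mean ± SD, n = 5). A step separated these from a middle group of cwn-2, cwn-1, cfz-2, mig-1, lin-17 and egl-20, whose Control means lay between 18.4 and 29.3 RPKM. Below a further step were bar-1 with 10.5 ± 1.54 RPKM and lin-44 with 7.47 ± 1.58 RPKM. The mean of mom-5 was 9.00-fold that of lin-44. Of neighbours in this order, only mom-2 and cwn-2, and egl-20 and bar-1, had Control values that did not overlap, so no other pair of neighbours is told apart by the 5 samples. Farther apart within the middle group, the Control values of cwn-2, cwn-1 and cfz-2 all lay above those of lin-17, and those of cwn-2 and cwn-1 above those of egl-20. The order of means was the same in SiO2 worms as in Control worms. In Ag worms mig-1 stood at rank 3, ahead of cwn-1, cwn-2 and cfz-2, and the other 6 genes kept their ranks.

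**Figure D1:**
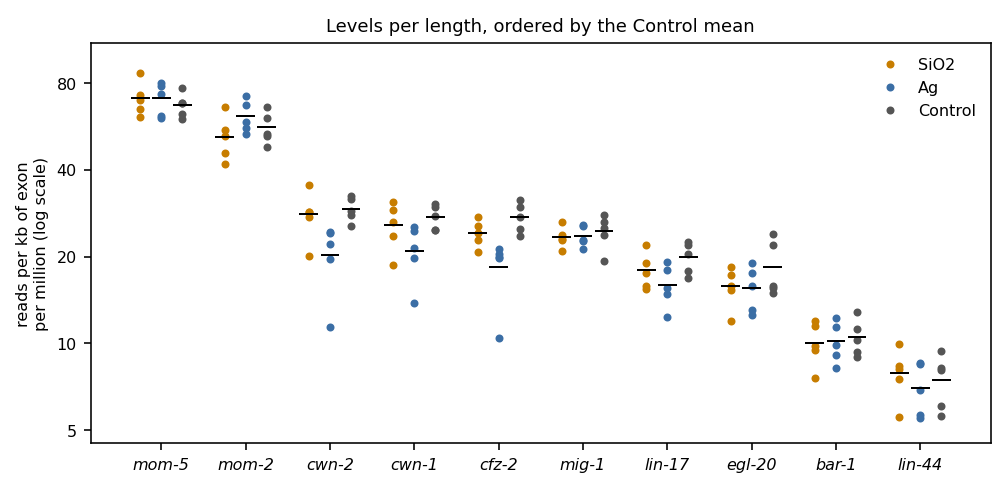
Levels of the 10 transcripts in RPKM on a log axis, ordered by the Control mean, with 1 point per sample (SiO2, Ag and Control from left to right within each gene) and a line at each group mean. The pair mom-5 and mom-2 lies above all others, bar-1 and lin-44 lie lowest, and the Ag points of cwn-2 and cfz-2 lie below their Control points.

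Within a gene, samples were compared as CPM, reads per 1000000 assigned reads, and tested with edgeR's quasi-likelihood test, with Benjamini-Hochberg adjustment over all genes tested. A gene was called where its adjusted p was under 0.05. Ag against Control and SiO2 against Control share the same 5 Control samples, so their values are given side by side and are not independent.

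Among the ligands, cwn-2 had the lowest values in Ag worms relative to Control. This Wnt is known for guiding anterior neurons and for placing the nerve ring. It had 50.5, 40.8, 40.7, 28.6 and 39.0 CPM in SiO2 worms (replicates 11 to 15), 34.4, 31.5, 16.2, 28.0 and 34.7 CPM in Ag worms (replicates 6 to 10), and 39.8, 41.2, 45.1, 46.3 and 36.3 CPM in Control worms (replicates 1 to 5). All 5 Ag samples lay below the lowest Control sample, and Ag replicate 8 lay far below the other Ag samples. The log2 fold change of Ag over Control was -0.51 (SE 0.16), with an adjusted p of 0.0561 in edgeR's quasi-likelihood test, so that cwn-2 narrowly missed the threshold. The exact two-sided permutation test of the CPM means gave p = 0.00794, unadjusted, the smallest that 5 against 5 samples allow. Without Ag replicate 8 the log2 fold change was -0.37, with an adjusted p of 0.0502. SiO2 over Control was -0.06 (SE 0.12) on the same scale, with an approximate 95% interval of -0.30 to 0.18 and groups that overlapped.

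The ligand cwn-1 is made in posterior muscle and other cells and acts partly in redundancy with the other Wnts in cell migration. Its CPM were 53.2, 45.4, 50.0, 32.3 and 40.8 in SiO2 worms, 42.5, 43.6, 23.8, 34.1 and 36.9 in Ag worms, and 42.6, 47.7, 52.5, 51.4 and 42.6 in Control worms. In Ag worms 4 of 5 samples lay below the lowest Control sample, and Ag replicate 7 fell inside the Control range. The log2 fold change was -0.37 (SE 0.13) for Ag over Control, with an adjusted p of 0.0888 (edgeR quasi-likelihood), and the exact permutation test gave an unadjusted p of 0.0317. For SiO2 over Control it was -0.09 (SE 0.12) with an adjusted p of 0.804 in the same kind of edgeR fit.

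The posterior Wnt egl-20, which directs the migration of the Q neuroblasts and of the HSN neurons, varied more within Control than within the exposed groups. It had 37.3, 31.9, 34.8, 24.2 and 30.8 CPM in SiO2 worms, 35.5, 38.5, 26.3, 25.3 and 31.9 CPM in Ag worms, and 32.0, 48.3, 44.2, 31.4 and 30.2 CPM in Control worms. Control replicates 2 and 3 were the highest of all 15 samples, and the other 3 Control samples lay within the range of both exposed groups. The log2 fold changes were -0.22 (SE 0.15) for Ag over Control and -0.23 (SE 0.15) for SiO2 over Control, with adjusted p of 0.322 and 0.525 in the edgeR fits, and neither was called.

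The Wnt lin-44 is made at the tip of the tail, where it orients the divisions of tail cells. It was the ligand with the fewest reads, at 7.66 to 13.7 CPM in SiO2 worms (median 11.2), 7.61 to 11.8 CPM in Ag worms (median 9.47) and 7.72 to 13.0 CPM in Control worms (median 11.1). The 3 groups covered nearly the same range. The approximate 95% interval of its log2 fold change was -0.40 to 0.26 for Ag over Control and -0.25 to 0.41 for SiO2 over Control, so changes of that size could not be told from none.

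The Wnt mom-2, which signals to the endoderm precursor in the early embryo, was the only ligand whose mean was higher in Ag worms than in Control. Its CPM were 64.1, 70.3, 80.3, 102 and 84.5 in SiO2 worms, 85.7, 81.9, 89.7, 103 and 111 in Ag worms, and 80.4, 74.0, 81.8, 93.2 and 102 in Control worms. These groups overlapped, with the lowest values in SiO2 replicates 11 and 12 and the highest in Ag replicate 10. The log2 fold change was 0.15 (SE 0.12) for Ag over Control and -0.09 (SE 0.14) for SiO2 over Control, neither of them called (adjusted p 0.415 and 0.848, edgeR quasi-likelihood).

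**Figure D2:**
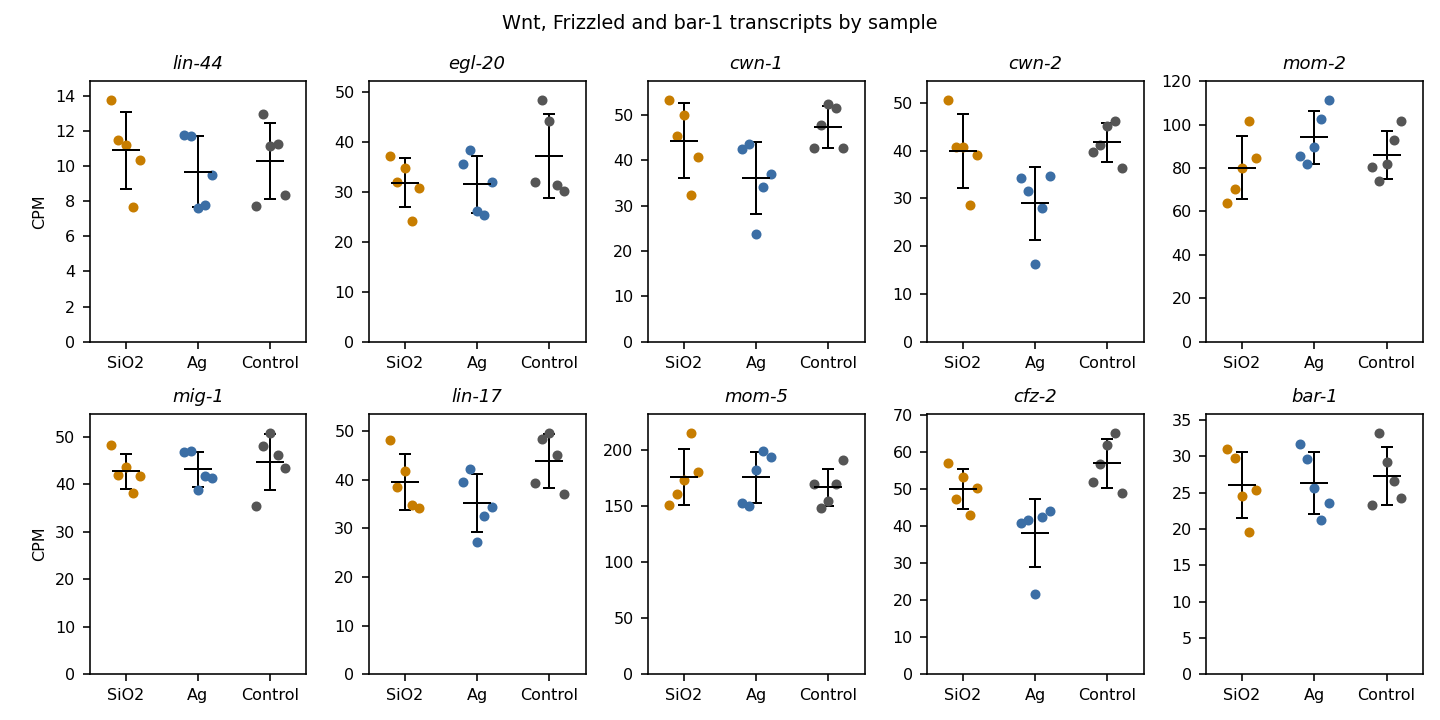
CPM of each of the 10 transcripts in every sample, on axes that start at 0, with SiO2, Ag and Control from left to right and the mean ± SD of 5 samples in black. In the panels of cwn-2 and cfz-2 the Ag points lie below all Control points, and 1 Ag sample (replicate 8) lies lowest of all.

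Of the 4 Frizzled receptors, cfz-2 fell in Ag worms and was the only one of the 10 genes called in any of the 3 comparisons. CFZ-2 is needed for the migration of several neurons and for the outgrowth of neurites in the head. It had 56.995, 47.2, 53.1, 42.9 and 50.2 CPM in SiO2 worms, 40.9, 41.5, 21.7, 42.5 and 44.0 CPM in Ag worms, and 51.9, 56.8, 61.8, 65.0 and 48.9 CPM in Control worms. Every Ag sample lay below the lowest Control sample, 4 of the Ag samples were within 40.9 to 44.0 CPM, and Ag replicate 8 stood apart from them. The means were 38.1 ± 9.23 CPM in Ag worms and 56.9 ± 6.70 CPM in Control worms (SD, n = 5 each), which on the fitted scale was a log2 fold change of -0.56 (SE 0.15) or 1.47-fold lower in Ag, with an adjusted p of 0.0404 in edgeR's quasi-likelihood test. The exact two-sided permutation test gave p = 0.00794, unadjusted, again the smallest possible.

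The direction of the cfz-2 change was the same under all 18 alternatives tried, with log2 fold changes between -0.61 and -0.42, but its adjusted p lay close to the threshold and ranged from 0.0112 to 0.108. It was 0.0317 without Ag replicate 8, and it passed 0.05 on the upper side with RLE normalization (0.0515), with the Kallisto estimates (0.0524), and when any 1 of Ag replicates 6, 7, 9 or 10 or of Control replicates 1 to 4 was left out (all by edgeR). In SiO2 worms the log2 fold change of cfz-2 over Control was -0.18 (SE 0.10), with an adjusted p of 0.459 and an approximate 95% interval of -0.38 to 0.03.

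The Frizzled lin-17, which sets the polarity of asymmetric divisions in the tail and the vulva, had lower means in both exposed groups without being called. Its CPM were 48.3, 38.6, 41.9, 34.9 and 34.1 in SiO2 worms, 39.5, 42.2, 27.2, 32.6 and 34.4 in Ag worms, and 39.3, 48.4, 49.6, 45.0 and 37.02 in Control worms. In Ag worms 3 of 5 samples lay below the lowest Control sample and all 5 lay below the Control mean, and the groups overlapped. The log2 fold change was -0.30 (SE 0.12) for Ag over Control, with an adjusted p of 0.115 (edgeR quasi-likelihood) and an unadjusted exact permutation p of 0.0556, and -0.15 (SE 0.12) for SiO2 over Control, with an adjusted p of 0.653.

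The remaining receptors showed no difference that their spread allowed to be seen. The Frizzled mig-1, which acts in the migration of HSN and QL descendants, ranged over 38.2 to 48.3 CPM in SiO2 worms, 38.7 to 47.0 CPM in Ag worms and 35.3 to 50.8 CPM in Control worms. Its exposed samples all fell within the Control range, and the approximate 95% intervals of the log2 fold change were -0.24 to 0.18 for Ag over Control and -0.28 to 0.15 for SiO2 over Control. The Frizzled mom-5, the receptor with the most reads, had 151, 161, 173, 215 and 180.1 CPM in SiO2 worms, 153, 150.0, 182, 199 and 194 CPM in Ag worms, and 169.8, 149, 155, 169 and 191 CPM in Control worms. Its group means were close, and its log2 fold changes were 0.10 (SE 0.12) for Ag over Control and 0.09 (SE 0.12) for SiO2 over Control, with adjusted p of 0.579 and 0.803 in the edgeR fits.

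The transcript of bar-1, whose product carries the canonical signal to POP-1 in vulval precursors and in the QL neuroblast, overlapped among the 3 groups over nearly its whole range. It had 31.0, 29.8, 24.5, 19.6 and 25.3 CPM in SiO2 worms, 31.7, 29.6, 25.6, 21.3 and 23.6 CPM in Ag worms, and 23.3, 33.2, 29.2, 26.6 and 24.2 CPM in Control worms. The samples of the 3 groups interleaved throughout. The approximate 95% intervals of the log2 fold change were -0.28 to 0.22 for Ag over Control and -0.32 to 0.19 for SiO2 over Control.

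**Figure D3:**
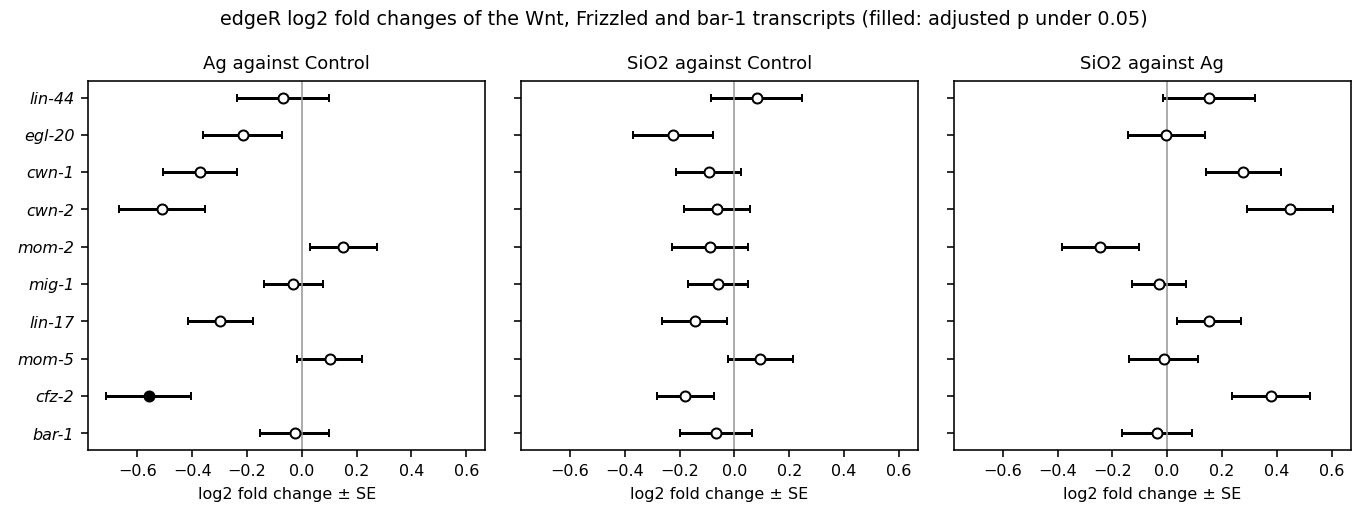
Log2 fold changes of the 10 transcripts from edgeR with bars of 1 SE, in panels for Ag against Control, SiO2 against Control and SiO2 against Ag. Only cfz-2 in Ag against Control, at -0.56, is filled as passing an adjusted p under 0.05.

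Counted together in Ag against Control, 1 of the 10 genes was called, and it was lower, while edgeR called 7.76% of the 20669 genes tested, 4.35% higher and 3.41% lower. At an unadjusted p under 0.05, 4 of the 10 were lower (cwn-1, cwn-2, lin-17 and cfz-2) against 14.6% of all genes tested, and 2 of the 10 had groups that did not overlap, with Ag lower, against 5.32% of all genes. The median log2 fold change of the 10 was -0.14, where that of all genes tested was -0.01, and 8 of the 10 values were negative. Here and below, all genes tested include ones with as few as 3 reads over the samples of a comparison. The 10 genes drew 126 to 4011 reads each per sample. Shares among genes of similar level were not computed, so an excess over all genes tested is not shown to be one over such genes.

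In SiO2 against Control none of the 10 genes was called by edgeR, against 2.66% of 20739 genes tested, and none had an unadjusted p under 0.05, against 14.9% of all genes. DESeq2 and the edgeR likelihood ratio test also called none of them. Here too 8 of the 10 log2 fold changes were negative, with a median of -0.08, where that of all genes was 0.01.

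The exposures were also set against each other directly, in a fit of all 15 samples. None of the 10 genes was called in SiO2 against Ag by edgeR's quasi-likelihood test or by DESeq2, while 3.4% of 21180 genes tested were. At an unadjusted p under 0.05, cwn-2 and cfz-2 were higher in SiO2 worms, 2 of 10, against 20.9% of all genes in either direction. For cfz-2 all 5 SiO2 samples lay above the Ag mean, and the log2 fold change was 0.38 (SE 0.14), with an adjusted p of 0.137 in the edgeR fit. For cwn-2 it was 0.45 (SE 0.16), with an adjusted p of 0.11, and without SiO2 replicate 14 it was 0.53, with an adjusted p of 0.0377 in edgeR. The call of cfz-2 in Ag and its absence in SiO2 are therefore not shown to differ between the exposures by this test.

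The transcripts did not vary independently across the samples. Over the 15 samples, the log2 CPM of cwn-2 and cfz-2 had Pearson's r = 0.94 (Spearman's rho = 0.90), those of cwn-1 and cwn-2 r = 0.94 (rho = 0.91), and those of mom-2 and mom-5 r = 0.85 (rho = 0.82), whereas mom-5 and bar-1 ran opposite, with r = -0.86 (rho = -0.85). With the 2 samples farthest from the median of the first gene left out, these r were 0.86, 0.86, 0.86 and -0.77. When each sample was taken as its deviation from its own group mean, r was 0.91 for cwn-2 and cfz-2, 0.91 for cwn-1 and cwn-2, 0.94 for mom-2 and mom-5, and -0.87 for mom-5 and bar-1, so the likeness was present within groups. These values are descriptions, since the points share the library and its depth.

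The same samples stood at the ends for several genes. Ag replicate 8 was the lowest Ag sample for 6 of the 10 genes, SiO2 replicate 14 the lowest SiO2 sample for 7, and SiO2 replicate 11 the highest SiO2 sample for 8. By contrast, mom-2 and mom-5 had their highest SiO2 values in SiO2 replicate 14, while in SiO2 replicate 11 they had the lowest.

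Summed markers of some tissues and stages moved across the samples along with some of the Wnt genes. The summed CPM of 8 larval molt genes were 1123 to 1653 in SiO2 worms, 590.3 to 1372 in Ag worms and 1218 to 1833 in Control worms, lowest in Ag replicate 8, and none of the 8 was called in Ag. Over the 15 samples this sum had r = 0.93 with cwn-1, with cwn-2 and with cfz-2. For the same genes in that order, the hypodermis and cuticle sum had r = 0.94, 0.92 and 0.84. With the other Wnt genes described here, r of the larval molt sum ran from -0.43 (mom-5) to 0.83 (lin-17). Over all 10 genes, r of the body wall muscle sum ran from -0.78 (mom-5) to 0.82 (lin-44). That of the intestine sum ran from -0.45 (mom-2) to 0.21 (lin-17), and that of the yolk sum from -0.17 (mom-5) to 0.56 (mig-1). The summed CPM of 12 germline and oocyte genes were 2603 to 5360 in SiO2 worms, 3942 to 6090 in Ag worms and 2834 to 4736 in Control worms. In Ag 3 of the 12 were called higher, against 4.35% of all genes tested. All 12 log2 fold changes in Ag over Control were positive, with a median of 0.45, where that of all genes was -0.01. The germline sum had r = 0.91 with mom-2 and r = 0.84 with mom-5. With each of the other Wnt genes described here its r was negative, from -0.76 with egl-20 to -0.35 with mig-1, and -0.72 with bar-1. With samples taken as deviations from their group means, these negative r ran from -0.87 with bar-1 to -0.07 with cfz-2. For cfz-2 the r over the 15 samples had been -0.44. On the same deviations, r was 0.94 with mom-2 and 0.925 with mom-5. The summed CPM of 10 neuronal genes were 781.6 to 1135 in SiO2, 792.6 to 1088 in Ag and 967.2 to 1272 in Control worms. In Ag 1 of the 10 was called lower (unc-119), against 3.41% of all genes tested. All 10 log2 fold changes in Ag over Control were negative. An unadjusted edgeR p under 0.05 was found for 7 of them, against 14.6% of all genes on the lower side. For other lists the sum and the members went apart. The embryo sum was carried by the eggshell gene cpg-1, with 822 ± 148 CPM in Ag worms and 562 ± 159 CPM in Control worms (SD, n = 5 each), whereas the other 9 of its 10 genes had negative log2 fold changes in Ag, none of them called by edgeR and 4 with an unadjusted p under 0.05. Of the 8 hypodermis and cuticle genes, rol-6, dpy-13, bli-1 and bli-2, at mean levels under 15 CPM, were called higher in SiO2 over Control, with log2 fold changes of 2.23 to 3.14, and had positive values in Ag that were not called, while col-10 was called lower in Ag, at -0.76. The part of these tissue and stage markers in the values of the Wnt genes was not tested.

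**Figure D4:**
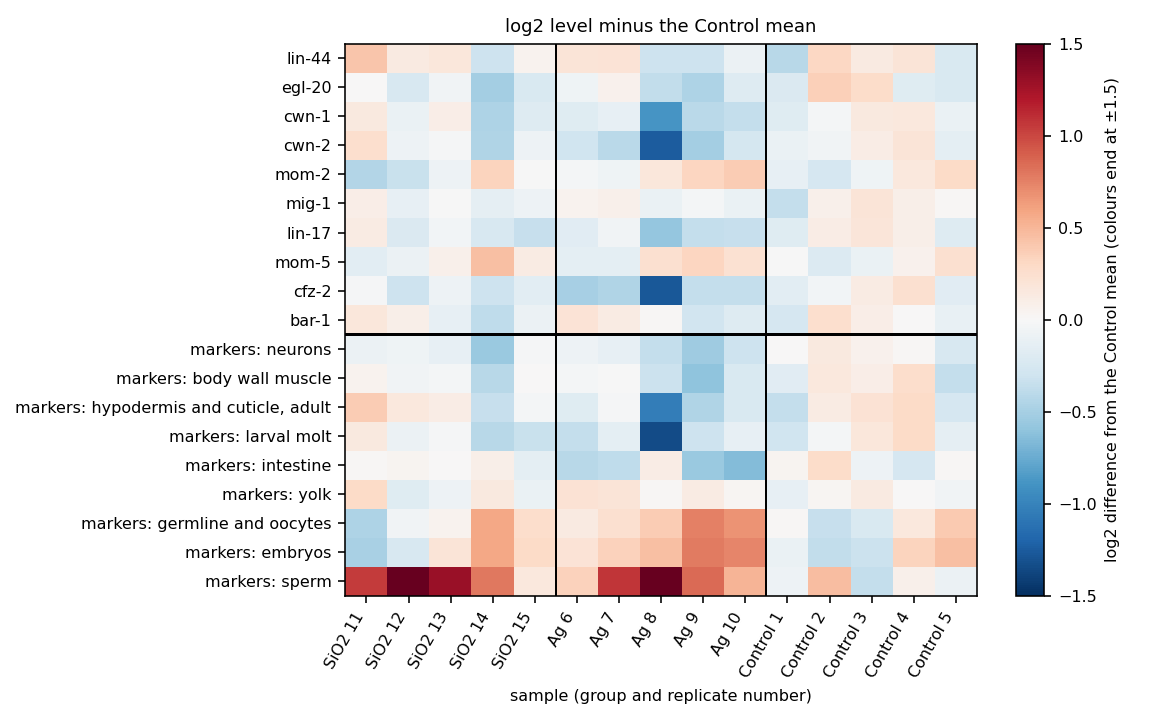
Log2 level of each of the 10 transcripts (upper rows) and of each summed marker list (lower rows) in every sample, as the difference from the Control mean, with SiO2, Ag and Control from left to right and colours that end at ±1.5. Ag replicate 8 holds the deepest blue for cwn-1, cwn-2 and cfz-2 and for the hypodermis and larval molt markers, and mom-2 and mom-5 follow the germline row. The embryo row is a sum carried by cpg-1 and the hypodermis row one carried by sqt-3 and col-19.

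For each of the 10 genes, the 2 genes with the most similar pattern were taken from 14287 genes with a mean of at least 1 CPM, by Pearson's r of log2 CPM over the 15 samples. The pattern of cwn-2 was most like those of ptr-15 (r = 0.99) and of sfrp-1 (r = 0.98), a secreted Frizzled-related protein that itself belongs to the Wnt pathway. That of cfz-2 was most like aat-3 and nhr-67 (r = 0.98 for both), that of cwn-1 most like ife-4 (r = 0.98) and mkk-4 (r = 0.97), and that of lin-17 most like T21D12.7 (r = 0.95) and C11H1.7 (r = 0.94). The closest genes to mom-2 were zipt-11 and hrpu-1 (r = 0.97 for both), and those to mom-5 were mrp-4 and pam-1 (r = 0.96 for both). For the remaining genes the closest were C25E10.12 (r = 0.94) and F13H10.6 (r = 0.92) for lin-44, egl-23 and sdz-24 (r = 0.90 for both) for egl-20, C37C3.2 (r = 0.83) and amdh-1 (r = 0.82) for mig-1, and K09C4.4 and ZC443.3 (r = 0.92 for both) for bar-1. Leaving out the 2 samples farthest from the median lowered these r most for mig-1, to 0.74 and 0.69. With Kallisto estimates, r of lin-44 was 0.85 with C25E10.12 and only 0.27 with F13H10.6.

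The rest of the pathway was described by 47 further genes in 5 lists, drawn up by role. In Ag against Control 8 of the 47 were called lower and 1 higher by edgeR, against 3.41% lower and 4.35% higher of all genes tested. Those shares are of 20669 genes, many with few reads, and only 14287 genes had a mean of at least 1 CPM over the 15 samples. With the filterByExpr filter, edgeR called 2021 genes instead of 1604, and 11 of the 47 instead of 9. Whether the 47 exceed genes of similar level was not tested, and the same holds for each of the 5 lists. Of the 47 log2 fold changes 32 were negative, with a median of -0.16, where that of all genes was -0.01. Leaving out 1 sample gave 0 to 7 calls in all, with 0 without Control replicate 3 and 3 without Ag replicate 8, and RLE normalization gave 5. In SiO2 against Control none of the 47 was called by edgeR's quasi-likelihood test, against 2.66% of all genes tested, and no alternative gave a call. An unadjusted p under 0.05 was found for 5 of the 47, all 5 lower, against 14.9% of all genes in either direction. The median log2 fold change there was -0.09, with 39 of the 47 values negative, where that of all genes was 0.01.

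The list with the most calls held the other receptors, co-receptors and surface regulators, of which 4 of 10 were called lower in Ag worms, against 3.41% of all genes tested. The syndecan sdn-1, a proteoglycan of the cell surface, had 205, 178, 185, 159 and 159 CPM in SiO2 worms, 156, 155, 101, 143 and 159.6 CPM in Ag worms, and 189, 210.2, 233, 221 and 192 CPM in Control worms. All Ag samples lay below all Control samples, and the log2 fold change was -0.53 (adjusted p 0.0165, edgeR). The Van Gogh homologue vang-1, of the planar cell polarity branch, had 31.4, 31.3, 31.5, 31.4 and 27.1 CPM in SiO2 worms, 24.9, 24.5, 18.7, 29.6 and 29.2 CPM in Ag worms, and 33.8, 34.3, 39.1, 41.7 and 40.5 CPM in Control worms. Both exposed groups lay wholly below Control for vang-1, with log2 fold changes of -0.56 for Ag (adjusted p 0.0224) and -0.30 for SiO2 (adjusted p 0.154, the smallest p of this list in SiO2 and not called by edgeR). Prickle, prkl-1, which works with Van Gogh, had a log2 fold change of -0.46 (adjusted p 0.0444, edgeR), and the ROR receptor kinase cam-1, which binds Wnts, one of -0.37 (adjusted p 0.0447, edgeR), in Ag over Control.

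Of 10 genes for the secretion and trafficking of Wnts, 1 was called higher and 1 lower in Ag worms. Of all genes tested, 4.35% were called higher and 3.41% lower. In this list 7 of the 10 log2 fold changes were positive and 3 negative, with a median of 0.19, where that of the 47 was -0.16. The myotubularin mtm-9, which helps recycle the Wnt carrier MIG-14, was higher, with 54.8 ± 4.97 CPM in Ag worms and 41.3 ± 5.94 CPM in Control worms (SD, n = 5 each) and a log2 fold change of 0.43 (adjusted p 0.043, edgeR). The AP2 adaptor subunit dpy-23, which takes MIG-14 up from the surface, was lower, with a log2 fold change of -0.35 (adjusted p 0.043, edgeR). In SiO2 against Control, the smallest p of this list was that of the sorting nexin snx-1, with a log2 fold change of -0.13 (adjusted p 0.602, edgeR).

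None of the 9 genes of Dishevelled and the destruction complex was called in either exposure by edgeR. The smallest p in Ag was that of the Dishevelled dsh-1, with a log2 fold change of -0.31 (adjusted p 0.0771, edgeR), and it was also the smallest of the list in SiO2, with -0.13 (adjusted p 0.651). Of the 9 other beta-catenins and nuclear effectors, 6 had negative log2 fold changes in Ag over Control. In 3 of the 9 the groups did not overlap, with Ag lower, against 5.32% of all genes. Only the TCF factor pop-1 was called in Ag worms, and it was lower. It had 65.4, 61.8, 65.5, 62.5 and 56.0 CPM in SiO2 worms, 53.4, 54.5, 42.0, 61.5 and 65.0 CPM in Ag worms, and 66.8, 72.7, 82.9, 82.9 and 68.7 CPM in Control worms. Each exposed sample lay below each Control sample, and the log2 fold changes were -0.41 in Ag (adjusted p 0.0432) and -0.26 in SiO2 (adjusted p 0.209, not called by edgeR). The beta-catenins hmp-2, wrm-1 and sys-1, which serve adhesion and asymmetric division, had log2 fold changes of 0.01, 0.09 and -0.16 in Ag over Control and were not called.

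All 9 genes known as Wnt targets had negative log2 fold changes in Ag over Control, with a median of -0.42, and 2 of the 9 were called, against 3.41% of all genes called lower. That median was the value of end-3, which like end-1 had a very low level. Their means were 0.34 CPM (end-3) and 0.90 CPM (end-1) in Ag worms, and 0.48 and 1.395 CPM in Control worms. Both genes are also in the list of embryo markers. The GATA factor egl-18, which maintains the seam cells of the epidermis, had 68.8, 67.3, 67.2, 60.6 and 58.7 CPM in SiO2 worms, 49.2, 52.8, 34.9, 56.2 and 57.3 CPM in Ag worms, and 63.4, 73.5, 80.8, 84.3 and 69.6 CPM in Control worms. Ag and Control did not overlap for egl-18, and the log2 fold change was -0.55 (adjusted p 0.0224, edgeR), while SiO2 over Control, the smallest p of the list there, was -0.20 (adjusted p 0.371). The Hox gene mab-5, which EGL-20 and BAR-1 switch on in the QL neuroblast, had 16.0, 15.4, 16.2, 12.7 and 13.6 CPM in SiO2 worms, 13.2, 12.4, 7.67, 8.27 and 11.7 CPM in Ag worms, and 13.0, 18.9, 18.1, 16.6 and 13.3 CPM in Control worms. Ag replicate 6 overlapped the lowest Control samples, and the log2 fold change of mab-5 in Ag over Control was -0.57 (adjusted p 0.0445, edgeR). Ag replicate 8, the library with the lowest sum of larval molt markers, was also the lowest of all 15 samples for sdn-1, vang-1, pop-1, egl-18 and mab-5, and the part of that library's makeup in these values was not tested.

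**Figure D5:**
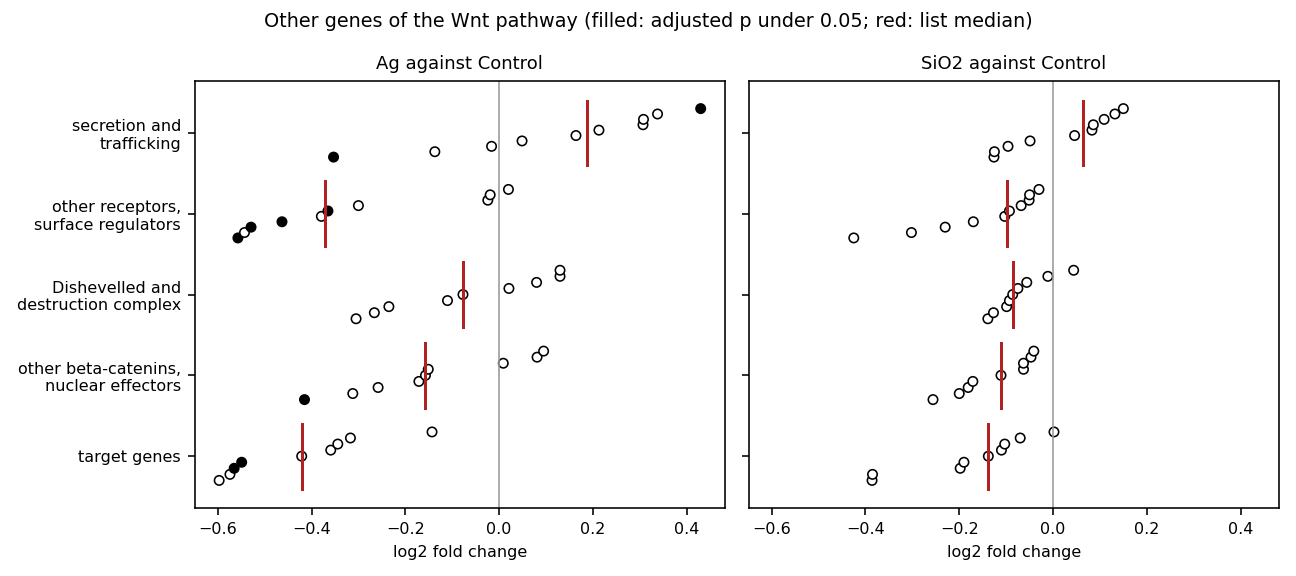
Log2 fold changes of 47 further Wnt pathway genes in 5 lists, for Ag against Control and SiO2 against Control, with 1 point per gene, filled where the adjusted p was under 0.05, and a red line at each list's median. In Ag 9 points are filled, 8 of them left of 0, and in SiO2 none is filled.

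The supplement of the study prints a Wnt signaling list, of which 73 of 74 identifiers were matched and which holds 8 of the 10 genes described here. According to the methods, the pathway gene sets were taken from the KEGG database. The supplement prints those that ranked as most enriched in these samples. The printing of this list thus depended on these samples, and its counts are not independent evidence of a direction. In Ag against Control 12 of the 73 were called lower and 1 higher, against 3.41% lower and 4.35% higher of all genes tested. Of those 12, 7 were among its 18 skr genes, which encode Skp1-related subunits of ubiquitin ligases. Of the called genes in no other list here, those with the smallest p in Ag were skr-8, skr-10, skr-13, skr-14 and skr-7, with log2 fold changes between -0.97 and -0.83 (adjusted p 0.00382 to 0.00692, edgeR). The skr genes include near-identical copies, so the assignment of reads among them is uncertain. Without the skr genes, 5 of the remaining 55 were called lower in Ag, against 3.41% of all genes tested. These include cfz-2, vang-1, prkl-1 and pop-1, which were already counted above. In SiO2 against Control the only gene of the list called was spe-4, a presenilin of sperm, with 4.54 ± 1.07 CPM in SiO2 worms and 2.44 ± 0.658 CPM in Control worms (SD, n = 5 each) and a log2 fold change of 0.90 (adjusted p 0.0319, edgeR). The summed CPM of 8 sperm markers were 10.4 to 28.1 in SiO2, 11.8 to 33.5 in Ag and 7.25 to 12.8 in Control worms. In each exposure 2 of the 8 were called higher. Of all genes tested, 4.35% were called higher in Ag, and 2.66% in either direction in SiO2. The sperm markers had low levels, with a lowest gene mean of 0.177 CPM. Their part in the value of spe-4 was not tested.

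On the genome (WBcel235, 1-based), the 10 protein-coding genes lie apart from each other. The Wnt genes are lin-44 (WBGene00003029) on chromosome I at 4126056 to 4129310, egl-20 (WBGene00001188) on chromosome IV at 9812357 to 9815532, cwn-1 (WBGene00000857) on chromosome II at 130983 to 133598, cwn-2 (WBGene00000858) on chromosome IV at 10067816 to 10070251, and mom-2 (WBGene00003395) on chromosome V at 8355988 to 8358185. The Frizzled genes are mig-1 (WBGene00003238), lin-17 (WBGene00003006) and mom-5 (WBGene00003397) on chromosome I at 948569 to 957456, 2706883 to 2717549 and 9965574 to 9970037, and cfz-2 (WBGene00000478) on chromosome V at 3441504 to 3444877. The gene bar-1 (WBGene00000238) is on chromosome X at 7166005 to 7170625. Exons of 3 of them share bases with a gene on the opposite strand, namely cwn-2 with W01B6.3 over 50 bases, mom-5 with tsp-7 over 66 bases and bar-1 with pgp-10 over 17 bases. Whether the counting used the strand of reads is not given in the sources used here, so the assignment of reads lying in those bases is uncertain. They are 3.5% of the exonic bases of cwn-2, 2.66% of those of mom-5 and 0.66% of those of bar-1.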

How the data were processed

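Single-end reads of whole-worm RNA were processed by the authors with FastQC 0.11.3, Trim Galore 0.4.5, HISAT2 2.1.0 on WBcel235, SAMtools 1.7 and HTSeq 0.9.1 in its intersection-strict mode, in which a read counts for a gene only if every one of its bases lies in that gene's exons, and only if this holds for a single gene. The deposited values analysed here are counts of reads per gene, not normalized. The authors also deposited estimated counts from Kallisto, which were rounded to whole numbers and served as an alternative only. The strand setting of the counting and the version of Kallisto are not given in the sources used here. Samples were grouped by their titles.

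Counts were tested with edgeR 4.0.16 in R 4.3.3 (quasi-likelihood test, TMM normalization, genes with a total of at least 3 reads, Benjamini-Hochberg adjustment over all genes tested). Each exposure was fitted with Control, and SiO2 against Ag came from all 15 samples. The code was tested on simulated data. Each standard error is the fitted log2 fold change over the root of its F statistic, and approximate 95% intervals are 1.96 SE on each side. CPM and RPKM were taken from total assigned reads and the union of annotated exons. Exact two-sided permutation tests used the 252 arrangements of 5 against 5 samples. Summaries used Python 3.11.15, numpy 2.4.6, pandas 2.3.3 and scipy 1.17.1.

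The 10 genes, the pathway lists, the markers and the tests were chosen with earlier results of these data known. All 10 genes were named, of the 47 other pathway genes those called and the smallest p per list and comparison with Control, of the list in the supplement up to 5 called genes per comparison that are in no other list, by smallest p, and for each of the 10 the 2 genes with the highest r. Of the 47, hmp-2, wrm-1, sys-1, end-1 and end-3 were named besides. Alternatives were DESeq2 1.42.0, edgeR's likelihood ratio test (tagwise dispersions), the filterByExpr filter, every gene with at least 1 read, RLE normalization, library size only, Kallisto estimates, another choice of samples in the fit, and leaving out each sample.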

Additional observations from a re-analysis of the deposited data

Results flagged for a closer look

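Dixon's ratio was computed for each of the 10 genes in each group, 30 groups of 5 samples in all, of which chance marks about 1 in 20. It exceeded the 95% critical value of 0.71 once, for cfz-2 in Ag worms, where replicate 8 had 21.7 CPM and a ratio of 0.859. Without that sample the log2 fold change of cfz-2 in Ag over Control was -0.42, with an adjusted p of 0.0317 (edgeR quasi-likelihood). In the same library the summed CPM of the larval molt markers were 590.3 and those of the hypodermis and cuticle markers 983.4, the lowest of all 15 samples. The hypodermis sum was carried by sqt-3 and col-19, and 4 of its 8 genes had positive log2 fold changes in Ag over Control. The part of these markers in the value of cfz-2 was not tested.

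Among the genes of the list printed in the supplement, SiO2 against Ag, tested directly, gave 3 calls among 73 genes, all of them skr genes, where 3.4% of all genes tested were called. That share is close to the background, so the count says nothing particular about the list. The log2 fold changes were 0.75 for skr-13 (12.9 ± 2.06 CPM in SiO2 worms and 7.55 ± 1.89 CPM in Ag worms, adjusted p 0.015), 0.62 for skr-10 (17.3 ± 3.27 CPM in SiO2 worms and 11.1 ± 2.73 CPM in Ag worms, adjusted p 0.0422) and -0.45 for skr-4 (41.6 ± 4.92 CPM in SiO2 worms and 55.9 ± 8.80 CPM in Ag worms, adjusted p 0.0497), as mean ± SD of 5 samples with edgeR's quasi-likelihood test. Near-identical copies make the assignment of reads among skr genes uncertain.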

How the results depend on the processing

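No paired analysis was possible because each sample has a replicate number of its own, shared with no other group. In Ag against Control, the number of the 10 genes called was 2 (cwn-2 and cfz-2) with the likelihood ratio test, DESeq2, the filterByExpr filter and all 15 samples in one fit, 0 with RLE normalization and with Kallisto estimates, and 0 to 1 when 1 sample was left out. The adjusted p of cwn-2 in those 4 fits was 0.0238, 0.0308, 0.0494 and 0.0471, and all its others were over 0.05. Of the 47 other pathway genes, RLE normalization called 5, and leaving out 1 sample gave 0 to 7, with 0 without Control replicate 3, 1 without Control replicate 4, 3 without Control replicate 2 or Ag replicates 7, 8 or 9, and 5 without Ag replicate 10. In SiO2 against Ag, 0 to 1 of the 10 genes and 0 to 2 of the 47 were called when 1 sample was left out, the highest without SiO2 replicate 14, and the likelihood ratio test and DESeq2 each called 1 of the 47. In SiO2 against Control the counts stayed at 0 for both under all 18 alternatives.

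Over all genes, the number called in Ag against Control was 2763 with the likelihood ratio test, 3151 with DESeq2 and 353 to 1833 with 1 sample left out. In SiO2 against Control it was 1095, 995 and 251 to 853 for the same settings, and 222 with all 15 samples in one fit. In SiO2 against Ag it was 1474, 1613 and 392 to 2052, and 409 with the 2 groups alone.

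Signs changed only for log2 fold changes near 0, none of them called. With 1 sample left out, Ag over Control ranged from -0.18 to 0.013 for lin-44, from -0.13 to 0.017 for mig-1 and from -0.11 to 0.04 for bar-1. SiO2 over Control ranged from -0.019 to 0.17 for lin-44, from -0.16 to 0.014 for cwn-2, from -0.024 to 0.15 for mom-5 and from -0.13 to 0.002 for bar-1. SiO2 over Ag ranged from -0.064 to 0.072 for egl-20, from -0.12 to 0.047 for mom-5 and from -0.099 to 0.033 for bar-1, and with library size only it was 0.013 for egl-20 and 0.003 for mom-5. The Control level of cwn-1 was 31.1 RPKM over its longest transcript, and that of lin-17 was 22.9 RPKM with Kallisto estimates. With Kallisto estimates, both most similar genes were kept for egl-20, cwn-2 and cfz-2, none for lin-44 and 1 for each of the other 6. The cause of these differences was not tested. The 126 to 4011 reads per gene and sample and the 5 samples per group limit what size of change could be seen.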
